A study of Mus musculus with 8 samples.

Results

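The genes described here are 10 genes that intercalated cells of the kidney use to handle acid and base. They are the transcription factor gene Foxi1, the anion exchanger genes Slc26a4, Slc26a7, Slc4a1 and Slc4a9, the proton pump subunit genes Atp6v1b1, Atp6v0d2, Atp6v1g3 and Atp6v0a4, and the carbonic anhydrase gene Car2. They were chosen by name, and each array probe was assigned through its RefSeq accession. All 10 had at least 1 probe, 12 probes in all, among 20887 genes named on the array. All 10 also passed the filter on dim signal and were tested, among 13982 genes.

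Kidney pairs were taken from C57BL/6 embryos at embryonic day 16.5, and total RNA of whole kidneys was hybridised to 2-colour Agilent arrays. The 4 wildtype pairs, WT1 to WT4, are the controls. The 4 knockout pairs, KO1 to KO4, carry a deletion of Dot1, taken here as Dot1l, the histone H3 lysine 79 methyltransferase gene, in Six2-positive nephron progenitor cells (NPC). The line that drives the deletion is not given in the sources used here, and a whole kidney also contains cells outside this lineage. Sample RNA carried the red dye Cy5 and was set against Cy3-labelled (green) RNA of WT1, so each value is a log2 ratio over that reference, and on the array of WT1 itself both dyes carried the same RNA.

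Intercalated cells lie between the principal cells of the collecting duct and connecting tubule. They move protons through a vacuolar proton pump (V-ATPase), exchange chloride for bicarbonate, and take both ions from carbonic acid formed by the cytosolic enzyme carbonic anhydrase 2. Type A cells secrete acid, with the anion exchanger AE1, the product of Slc4a1, in the basolateral membrane, while type B cells secrete bicarbonate through pendrin, the product of Slc26a4. FOXI1 is the transcription factor on which intercalated cell identity depends. The collecting duct arises from the ureteric bud, not from the Six2-positive progenitors, which give rise to the nephron up to its connecting segment.

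Background was uneven: median red signal of the negative-control spots was 58 to 61 units on 6 arrays, but 1361 on WT1 and 478.2 on KO1. Median red signal of the other spots was 72.5 to 80 units on the 6, 5071.5 on WT1 and 792 on KO1. The raw green signal, from the same WT1 RNA on every array, correlated at a median r of 0.996 to 0.997 among the 6. With these 6 arrays, the median r of WT1 was only 0.558 and that of KO1 0.903. The probe of the targeted gene Dot1l differed by 0.03 ± 0.08 (SE, n = 4 per group), and where it lies relative to the deleted part was not analysed here, so it does not check the labels. The progenitor gene Cited1, chosen after its value was seen, was lower on all KO arrays, by -2.72 ± 0.10 (limma adjusted p = 2.79e-08). This was the lowest difference of all 13982 genes tested. Of 12 progenitor genes tested, 6 fell and none rose, with 9 differences below 0 and 3 above. Six2 differed by -0.21 ± 0.12 (limma adjusted p = 0.439). The Y-linked gene Ddx3y was high on the 4 KO arrays and on WT2, from 2.31 to 3.29, and lay between -0.11 and 0.08 on WT1, WT3 and WT4, so sex was not balanced between the groups. All WT arrays lay in 1 row of the slide and all KO arrays in the other, so row and group cannot be told apart.

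RefSeq promoters, from 250 bases before to 50 bases after the start of a gene, were used for 5 of the 10 genes. They were searched on both strands for TGTTTA, a core of forkhead binding motifs, because the FOXI1 protein is a forkhead factor known to act on pump subunit and exchanger genes. A match was found in 1 of the 5, that of Atp6v1b1, where it is the start of the longer TGTTTAC and begins 98 bases before the start of the gene. Among all 32851 RefSeq promoters of this length, 13.4% held TGTTTA and 3.65% held TGTTTAC. That count took in every chromosome, while the search of the members left 1 out. The promoters of Foxi1, Slc26a4, Atp6v1g3 and Atp6v0a4 held neither motif in this window. The promoter of Slc26a4, the member with the largest difference between the groups, and that of Atp6v1b1, the 1 with a match, are shown in lower case (RefSeq, GRCm38.p6), with the match in capitals.
Slc26a4, chr12:31559935-31560234, minus strand: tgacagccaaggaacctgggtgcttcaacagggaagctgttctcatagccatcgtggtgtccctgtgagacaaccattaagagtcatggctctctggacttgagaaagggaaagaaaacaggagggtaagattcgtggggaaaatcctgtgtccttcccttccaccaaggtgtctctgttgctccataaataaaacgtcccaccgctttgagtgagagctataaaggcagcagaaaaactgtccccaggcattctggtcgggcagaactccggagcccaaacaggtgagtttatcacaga
Atp6v1b1, chr6:83742767-83743066, plus strand: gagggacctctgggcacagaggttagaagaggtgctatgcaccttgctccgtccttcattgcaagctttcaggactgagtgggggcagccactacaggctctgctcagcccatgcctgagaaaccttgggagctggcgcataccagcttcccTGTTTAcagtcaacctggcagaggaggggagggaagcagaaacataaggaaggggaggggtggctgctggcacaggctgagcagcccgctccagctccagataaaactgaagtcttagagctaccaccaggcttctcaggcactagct

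The question was whether acid-base genes of intercalated cells change when Dot1l is deleted in nephron progenitors. Slc26a4 and Car2 were higher in KO, by 1.69-fold and 1.42-fold, with limma adjusted p of 0.0444 and 0.0462. They passed in 9 and 6 of 26 alternatives, and each failed on leaving out any 1 of 6 arrays. Slide row went with group and sex was not balanced, so the part of the deletion in these differences cannot be told apart from theirs. The other 8 genes did not pass the test. Foxi1 was among these 8, with a difference of -0.02 on the log2 scale. Of the 10 members, 2 were thus called (both higher), where 2.15% of all genes tested were called 1.61% higher and 0.544% lower. The difference of Slc26a4 had been seen before the 10 genes were chosen. The median difference was 0.13 over the members and 0.03 over all genes. In whole kidneys, a change in the number of cells of a type and a change in RNA per cell cannot be told apart.

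**Figure D1:**
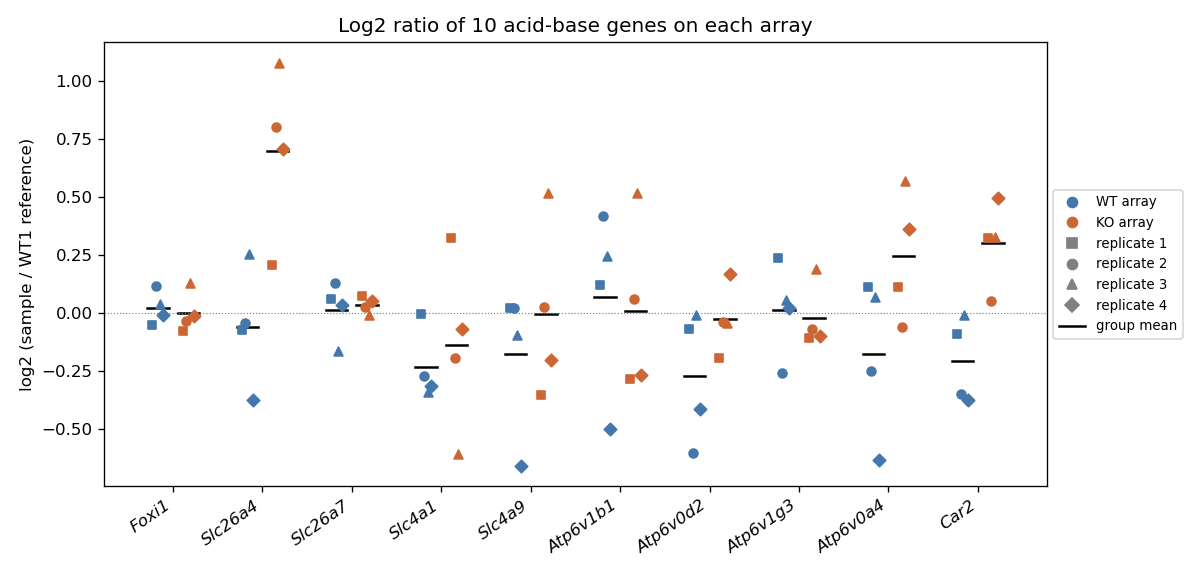
Log2 ratio of each of the 10 genes over the WT1 reference, with 1 point for each of 4 WT (blue) and 4 KO (orange) arrays, a marker shape for each replicate number and a bar at each group mean. The KO arrays 2 to 4 lie from 0.71 to 1.08 for Slc26a4, above every WT array, while both groups of Foxi1 lie between -0.08 and 0.13.

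The transcription factor gene Foxi1 was well above background on all 8 arrays. Its log2 ratios were -0.05, 0.11, 0.04 and -0.01 in WT1 to WT4 and -0.08, -0.03, 0.13 and -0.01 in KO1 to KO4. The groups overlapped fully, with the lowest and the highest value both in KO. The difference was -0.02 ± 0.08 (SE; limma adjusted p = 0.947), with a 95% interval from -0.20 to 0.16. Its sign turned in some alternatives, to 0.00 with median centring in place of loess and to 0.30 with the red channel alone. The red channel alone shifted the median of all genes to 0.22, so Foxi1 lay little above it there.

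Slc26a4 encodes pendrin, the apical chloride-bicarbonate exchanger of type B cells. Its log2 ratios were -0.07, -0.05, 0.25 and -0.38 in WT1 to WT4 and 0.20, 0.80, 1.08 and 0.71 in KO1 to KO4. KO2 to KO4 lay above every WT array, whereas KO1, 1 of the 2 arrays with high negative controls, lay within the WT range. The difference was 0.76 ± 0.17 (SE, n = 4 per group; 95% interval 0.38 to 1.13; limma adjusted p = 0.0444). An exact permutation test of the 70 splits, two-sided, gave p = 0.0571 for Slc26a4. Without WT1 and KO1 it was 0.92 ± 0.16 (adjusted p = 0.0322), and with the replicate number as a block its adjusted p was 0.00926.

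The raw red signal of the Slc26a4 probe was 351 to 501.5 units on WT2 to WT4 and 619.5 to 744 units on KO2 to KO4, with no overlap. The green signal, from the shared reference, was 170.5 to 197.5 units on WT2 to WT4 and 149 to 160.5 units on KO2 to KO4. After normalization of each channel these 6 arrays differed by 0.83 in red and by -0.09 in green, so most of their difference in ratio lay in the red channel of the samples. Over all 8 arrays the red channel differed by 0.34 and the green by -0.42. The adjusted p of Slc26a4 was above 0.05 without any 1 of WT1 (0.111), WT2 (0.0954), WT4 (0.125), KO2 (0.105), KO3 (0.0830) or KO4 (0.131), and the differences without any 1 array ran from 0.63 to 0.92. With sex as a model term, which sets KO against the male WT2 array, Slc26a4 differed by 0.74 ± 0.28 (adjusted p = 0.350).

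Car2 encodes the cytosolic carbonic anhydrase that supplies protons and bicarbonate to both cell types. Its log2 ratios were -0.09, -0.35, -0.01 and -0.38 in WT1 to WT4 and 0.32, 0.05, 0.33 and 0.49 in KO1 to KO4. Car2 was the 1 member whose groups did not overlap, an arrangement that 9.28% of all genes showed, 6.82% with KO above WT. The difference was 0.51 ± 0.12 (SE, n = 4 per group; 95% interval 0.25 to 0.76; limma adjusted p = 0.0462). The two-sided exact permutation p was 0.029, the smallest that 70 splits allow. Raw red signal on the 6 arrays with low negative controls nevertheless overlapped, at 2357 to 3296 units in WT2 to WT4 and 2429 to 4825 units in KO2 to KO4. The raw green signal, from the shared reference, did not overlap. It was 1291 to 1465 units in WT2 to WT4 and 1062 to 1178 units in KO2 to KO4. In these 6 arrays Car2 differed by 0.54 ± 0.14 (adjusted p = 0.107) in ratio, and by 0.46 in red and -0.08 in green.

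Leaving out any 1 of 6 arrays took the adjusted p of Car2 above 0.05. It was 0.0727 without WT1, 0.126 without WT2, 0.135 without WT4, 0.0744 without KO1, 0.0870 without KO3 and 0.174 without KO4, and the differences without any 1 array ran from 0.44 to 0.59. With sex as a term Car2 differed by 0.65 ± 0.18 (adjusted p = 0.231). In the plot of settings, Slc26a4 and Car2 stayed higher in KO under every alternative run, and passed in 9 and 6 of 26. These 26 are not independent. An Aquantile step between arrays leaves the ratios unchanged by construction, so its pass for each gene was fixed in advance. The deposited values nearly repeat the scanner software's ratios. With the scanner software's own ratios neither passed, at 0.88 (adjusted p = 0.131) for Slc26a4 and 0.47 (adjusted p = 0.149) for Car2.

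**Figure D2:**
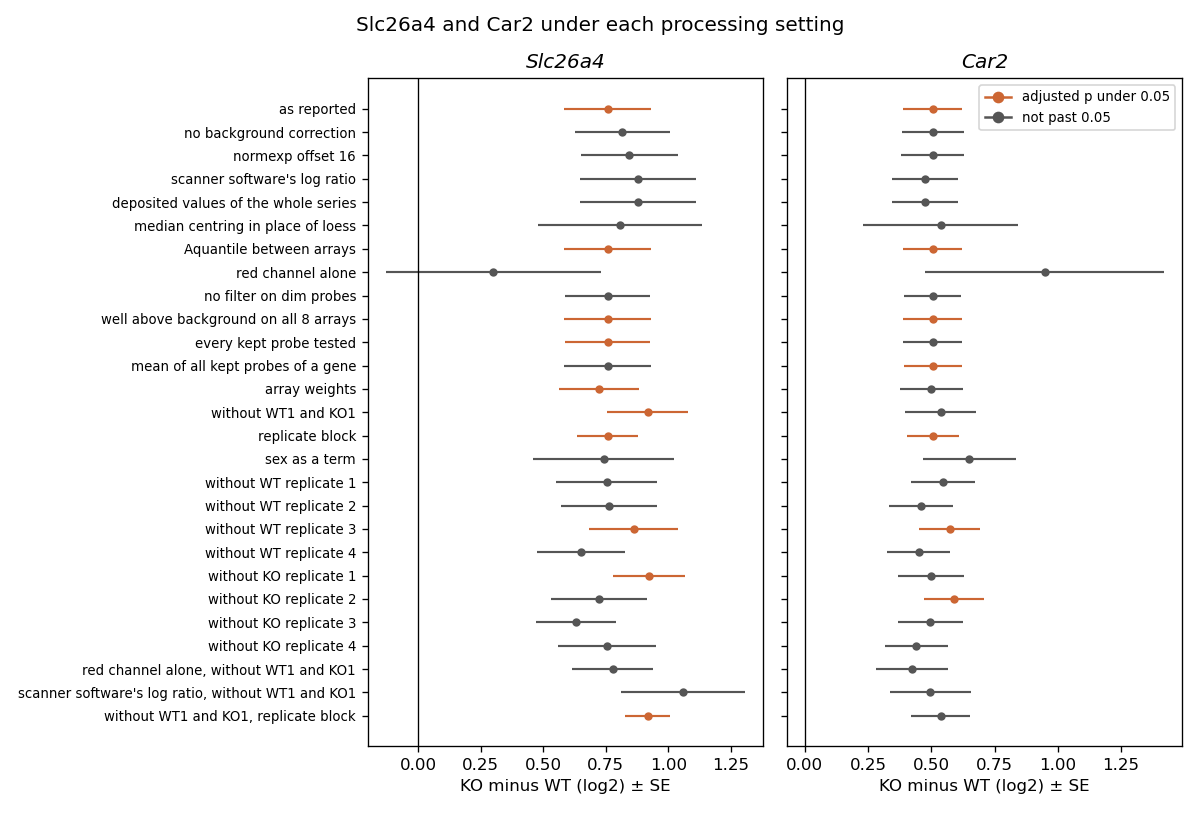
Difference of Slc26a4 (left) and Car2 (right) between KO and WT on the log2 scale, with its SE, as reported and under each of 26 alternatives (rows). Orange points passed an adjusted p of 0.05 and grey points did not; the values run from 0.30 to 1.06 for Slc26a4 and up to 0.95 for Car2.

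Car2 is also expressed outside intercalated cells, in red cell precursors and in the proximal tubule among others. Of 13 proximal tubule genes tested, all 13 differences were above 0, against 8295 of 13982 over all genes. The median of the 13 was 0.43, and none passed (unadjusted p under 0.05 in 8; 4 higher with the replicate block). Their mean log2 ratio ran from -0.87 to -0.10 over the WT arrays and from -0.26 to 0.76 over the KO arrays. Dab2, an endocytic adaptor gene, differed by 0.43 ± 0.11 (limma adjusted p = 0.0562), and Slc27a2, which activates and imports fatty acids, by 0.77 ± 0.19 (0.0659). The part of proximal tubule RNA in the difference of Car2 was not tested.

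The other exchangers did not pass the test. Slc4a9 encodes AE4, a basolateral transporter of type B cells. Its brighter probe gave 0.02, 0.02, -0.10 and -0.66 in WT1 to WT4 and -0.36, 0.02, 0.52 and -0.21 in KO1 to KO4. The difference of 0.17 ± 0.19 (SE; adjusted p = 0.749) was smaller than the spread within each group, where WT4 was the lowest WT array and KO3 the highest KO array. It was 0.01 without WT4 and, against the male WT2 array, -0.03. The second Slc4a9 probe differed by 0.04 ± 0.17 (adjusted p = 0.953 over every kept probe).

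Slc4a1 encodes AE1, the basolateral exchanger of type A cells and, as band 3, a membrane protein of red cells. Its log2 ratios were 0.00, -0.27, -0.34 and -0.32 in WT1 to WT4 and 0.32, -0.20, -0.61 and -0.07 in KO1 to KO4. The KO values spanned the whole WT range and passed it on both sides. The difference was 0.10 ± 0.16 (SE; limma adjusted p = 0.854), and -0.06 without KO1. Of 23 erythroid genes listed, 13 were tested and none passed (median -0.07, unadjusted p under 0.05 in 4). Of these 13 differences, 6 were above 0 and 7 below. Lowest in p were the haem synthesis gene Alas2 (0.48 ± 0.15, SE; limma adjusted p = 0.144) and Epor (-0.27 ± 0.09; 0.169). With the replicate block 1 rose, Alas2 (adjusted p = 0.0267). The mean log2 ratio of these 13 genes was highest in KO1 (0.23) and lowest in KO3 (-0.46), the same arrays that held the highest and the lowest value of Slc4a1. Of the 22 erythroid genes with a probe, 7 were well above background on all 8 arrays, among them Alas2, the transcription factor gene Klf1 and the embryonic globin gene Hbb-y, and 1, Ank1, on none. The part of red cell RNA in the values of Slc4a1 and Car2 was not tested.

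Slc26a7 encodes a basolateral anion transporter of type A cells of the outer medulla. It was close to background, with red signals of 87 to 122 units on the 6 arrays with low negative controls, and was well above background on these 6 only. Its log2 ratios lay between -0.17 and 0.13 in WT and between -0.01 and 0.07 in KO, and the difference was 0.02 ± 0.09 (SE; limma adjusted p = 0.951). Without WT3 it was -0.04.

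**Figure D3:**
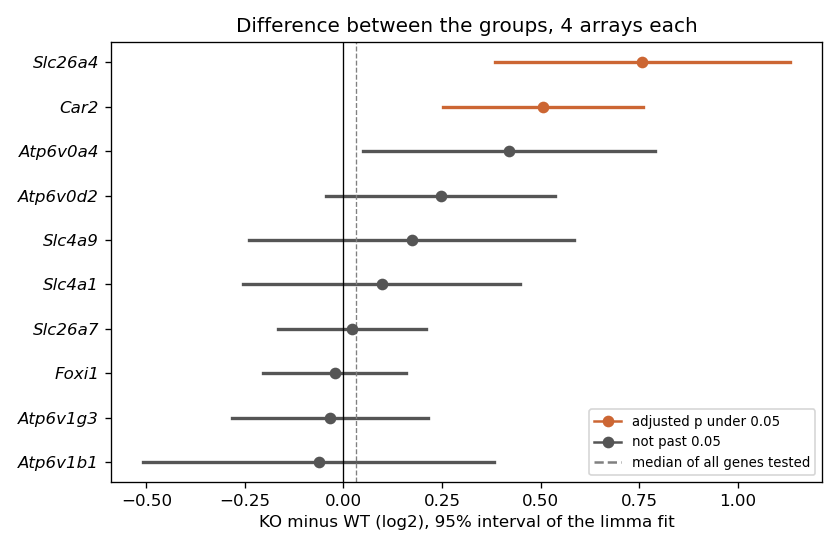
Difference between KO and WT (log2) for each of the 10 genes with the 95% interval of the limma fit, 4 arrays per group, in order of size. The intervals of Slc26a4 (0.38 to 1.13), Car2 (0.25 to 0.76) and Atp6v0a4 (0.05 to 0.79) lie above 0, but Atp6v0a4 did not pass after adjustment over all genes (dashed line: median of all genes tested).

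The V-ATPase couples a cytosolic V1 sector, which splits ATP, to a V0 sector in the membrane, which carries the protons. Intercalated cells use subunit isoforms that few other cells have. Atp6v0a4 encodes the a4 isoform of the large membrane subunit. Its log2 ratios were 0.11, -0.25, 0.07 and -0.63 in WT1 to WT4 and 0.11, -0.06, 0.57 and 0.36 in KO1 to KO4, so that KO3 and KO4 lay above all WT arrays while KO1 and KO2 lay among them. The difference was 0.42 ± 0.17 (SE; 95% interval 0.05 to 0.79; limma adjusted p = 0.268), and 0.27 without WT4. The a1 isoform gene Atp6v0a1, found in many cells, differed by 0.09 ± 0.09 (adjusted p = 0.737).

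Atp6v0d2 encodes the d2 isoform of the stalk between the sectors, which osteoclasts and macrophages also use. Its brighter probe gave -0.07, -0.60, -0.01 and -0.42 in WT1 to WT4 and -0.20, -0.04, -0.05 and 0.17 in KO1 to KO4. The upper WT values and the KO values overlapped, and the difference was 0.25 ± 0.13 (SE; limma adjusted p = 0.437). It was 0.14 without WT2, the lowest array, and 0.58 against WT2 alone in the fit with sex as a term (adjusted p = 0.270). A second Atp6v0d2 probe was not well above background on any of the 8 arrays and gives no fold. The d1 isoform gene Atp6v0d1 differed by 0.04 ± 0.08 (adjusted p = 0.898).

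Of 17 macrophage and osteoclast lineage genes tested, 4 rose and none fell, with a median of 0.30. These were Mrc1, the mannose receptor gene (0.56 ± 0.08, SE; limma adjusted p = 0.00554), Cx3cr1, a chemokine receptor gene (0.51 ± 0.09), Pf4, a chemokine gene (0.54 ± 0.10), and Csf1r, the receptor gene of the macrophage growth factor (0.47 ± 0.11). With the replicate block 5 rose, the complement gene C1qc being added (0.37, adjusted p = 0.0401). The mean log2 ratio of the 17 genes ran from -0.15 to -0.07 over the WT arrays and from 0.17 to 0.22 over the KO arrays, without overlap. Of the osteoclast genes in this list, Acp5 and Ctsk were well above background on 7 arrays, Oscar on 6, Dcstamp on 3 and Ocstamp on none. Mrc1 and Cx3cr1 passed without any 1 array. The count was 2 without KO4 and 2 without WT1 and KO1, and the part of these cells in the values of Atp6v0d2 was not tested.

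Atp6v1b1 encodes the B1 isoform of the ATP-binding sector, whose loss causes distal renal tubular acidosis with deafness in people. Its log2 ratios were 0.12, 0.42, 0.24 and -0.50 in WT1 to WT4 and -0.28, 0.06, 0.52 and -0.27 in KO1 to KO4. It had the widest interval of the 10 genes, from -0.51 to 0.38, around a difference of -0.06 ± 0.20 (SE; limma adjusted p = 0.937). The sign turned without WT2 (0.05), KO1 (0.03) or KO4 (0.03). The B2 isoform gene Atp6v1b2, found in most cells, differed by 0.08 ± 0.12 (adjusted p = 0.824).

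Atp6v1g3 encodes the G3 isoform of the V1 stalk. The probe was dim, at 78 to 101 red units on the 6 arrays with low negative controls, and was well above background on WT3, WT4, KO2 and KO3 only. Its log2 ratios lay between -0.26 and 0.24 in WT and were -0.11, -0.07, 0.19 and -0.10 in KO1 to KO4, with KO3 apart from the other KO arrays. The difference was -0.03 ± 0.11 (SE; limma adjusted p = 0.938), and 0.04 without WT1. The G1 isoform gene Atp6v1g1 differed by 0.26 ± 0.08 (adjusted p = 0.115), with each KO array (0.08 to 0.17) above each WT array (-0.20 to -0.09).

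Among the other V-ATPase subunits, none of 20 tested genes passed in either direction (limma; unadjusted p under 0.05 in 6). Their differences ran from -0.12 to 0.29, with a median of 0.08. Of the 20, 16 were above 0, where 8295 of all 13982 genes were. Beside Atp6v1g1, the lowest p was that of Atp6v0e2, a small membrane subunit gene (0.23 ± 0.08, SE; adjusted p = 0.220). No alternative called a gene of this list.

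The members did not vary as 1 block across the arrays. Over the 45 pairs of members the Pearson r of the log2 ratios on 8 arrays, given as a description, ran from -0.82 to 0.90 with a median of 0.16. The highest was that of Slc4a9 with Atp6v1b1 (0.90), followed by Atp6v0a4 with Car2 (0.85). Slc26a4 correlated with Atp6v0a4 (0.79), Car2 (0.76), Slc4a9 (0.68) and Atp6v0d2 (0.66), but little with Foxi1 (0.25). The lowest was that of Foxi1 with Slc4a1 (-0.82). KO3 was the highest KO array in 6 of the 10 genes, against 31.2% of all genes, and WT4 the lowest WT array in 5, against 18.5%. Of the arrays with high negative controls, KO1 was the lowest KO array in 6, against 34.2% of all genes, and WT1 the highest WT array in 4, against 16.2%.

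The genes with the profile most like that of Foxi1 over the 8 arrays, among 13950 genes measured on every array, were Get3 (r = 0.968), Mrpl12 (0.962), Zdhhc1 (0.957), 9330175M20Rik (0.956) and Siglech (0.956). Those most like Slc26a4 were Tapbp, which encodes a chaperone of MHC class I loading (r = 0.99), the complement gene C2 (0.981), the pyridoxal kinase gene Pdxk (0.98), Tspan33 (0.972) and Vat1 (0.971). With 8 arrays and so many genes, values of this size describe likeness and nothing more.

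Of the other carbonic anhydrase genes, 15 were listed and 11 tested, and none passed (limma; unadjusted p under 0.05 in 4, with a median difference of 0.09). Car8, a family member without enzyme activity, differed by 0.32 ± 0.09 (SE; adjusted p = 0.0825) and Car14, a membrane-bound form of proximal segments, by -0.36 ± 0.12 (adjusted p = 0.166). Car8 passed, higher in KO, with a normexp offset of 16 (0.56, adjusted p = 0.0406) and with array weights (adjusted p = 0.0467). It was 0.93 with the scanner software's ratio (adjusted p = 0.165). With no filter on dim probes the other Car8 probe stood for the gene, and differed by -0.23 (adjusted p = 0.410). With the replicate block Car15, a membrane-anchored form, fell by 0.68 (adjusted p = 0.0141). Without KO3, 1 gene of this list passed, lower in KO. Of the 11 differences, 6 were above 0 and 5 below.

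Of 12 other Slc4 and Slc26 genes tested, none passed (limma; unadjusted p under 0.05 in 3, median 0.04). Slc4a11 differed by -0.27 ± 0.10 (SE; adjusted p = 0.213) and Slc26a1, a sulfate transporter gene, by 0.31 ± 0.11 (adjusted p = 0.218). The groups overlapped in all 12.

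Of 13 other proton, ammonium and chloride transport genes, 1 fell and 1 rose. Rhbg, a basolateral ammonium transporter gene of the connecting and collecting segments, gave 0.06, 0.02, 0.05 and -0.34 in WT1 to WT4 and -0.90, -0.77, -0.55 and -0.79 in KO1 to KO4. All KO values lay below all WT values, and the difference was -0.70 ± 0.11 (SE, n = 4 per group; 1.63-fold lower; limma adjusted p = 0.00843). Rhbg passed without any 1 array, and was -0.78 against the male WT2 array (adjusted p = 0.157). Its apical counterpart Rhcg differed by 0.10 ± 0.11 (adjusted p = 0.759).

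Slc12a2, which encodes the sodium-potassium-chloride cotransporter NKCC1, rose by 0.53 ± 0.10 (limma adjusted p = 0.0190). It did not pass without WT2 (0.0528), WT4 (0.0616), KO2 (0.0508) or KO4 (0.0722), where each value is the adjusted p.

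Of 13 other intercalated cell markers, Rhbg fell and no other passed. The median of this list was 0.04, against 0.03 for all genes. Hepacam2, the gene of an adhesion protein, had the largest difference above 0 (0.17 ± 0.13, SE; limma adjusted p = 0.615). The water channel gene Aqp6 differed by 0.04 ± 0.13 and Dmrt2, a transcription factor gene of type A cells, by -0.01 ± 0.13.

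Of 13 principal cell genes, 3 rose and none fell, with a median of 0.10. These were Fxyd4, a regulator of the sodium pump (0.79 ± 0.16, SE; limma adjusted p = 0.0268), the keratin gene Krt19 (0.54 ± 0.12) and the tetraspanin gene Tspan1 (0.81 ± 0.19). Of the 13 differences, 10 were above 0 and 3 below. The water channel gene Aqp2 (0.37 ± 0.38), Avpr2 (0.02 ± 0.13) and Scnn1a (-0.06 ± 0.10) did not pass. The count of called genes was 0 without any 1 of WT1, WT2, WT4, KO2, KO3 or KO4, and 2 without both WT1 and KO1. The mean log2 ratio of the 13 genes was lowest in WT4 (-0.55) and highest in KO3 (0.21), the arrays that were also the lowest and the highest for Slc26a4 and Atp6v0a4. The means of the proximal tubule genes (WT4 -0.87, KO3 0.76) and of the other V-ATPase subunits (-0.15 and 0.05) had the same lowest and highest arrays. For the other intercalated cell markers WT4 was also lowest (-0.34), but WT1 was highest (0.03). The part of principal cell RNA in the differences of the members was not tested. In the ureteric bud list, 1 of 13 genes fell, Lhx1, a transcription factor gene that forming nephrons share (-0.86 ± 0.15), which did not pass without KO4.

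**Figure D4:**
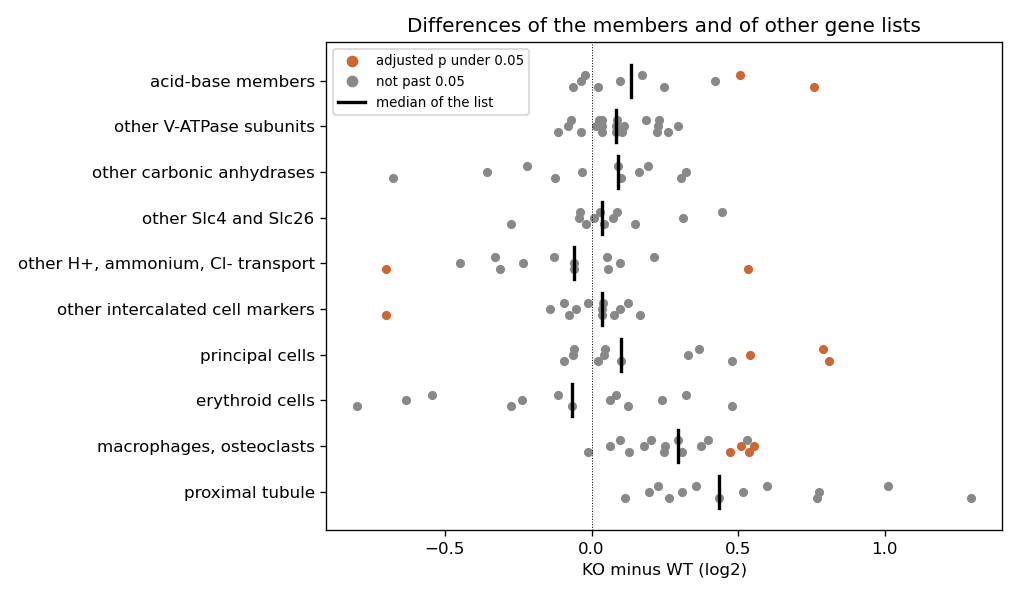
Difference between KO and WT (log2) of each tested gene (points) in the 10 acid-base genes and in 9 other lists, with a bar at the list median. Orange points passed an adjusted p of 0.05, among them Slc26a4 and Car2 in the first row and Rhbg, which 2 lists hold; medians run from -0.07 (erythroid cells) to 0.43 (proximal tubule).

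Across all 13982 genes, 301 passed in limma, 225 higher and 76 lower in KO, and 556 with the replicate number as a block, with which the same 2 members passed. Of the 10 members, 3 had an unadjusted p under 0.05, where 14.5% of all genes did. Tested over every kept probe, 1.53% of 18146 probes passed (1.11% higher in KO), and Slc26a4 (adjusted p = 0.0498) was the 1 member among them, with Car2 at 0.0527.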

How the data were processed

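Total RNA from 8 whole kidney pairs was measured on 1 slide of 2-colour Agilent arrays, 4 per group. Spot intensities are median pixel signals with local background, per the file headers, from Agilent Feature Extraction 10.7.3.1 (array design annotated on mm9). The deposited log10 ratios are the scanner software's red over green values after its own background subtraction and dye normalization, per the file headers. The deposited table of the whole series held the same log10 ratios to within 0.497%, with a median of 0 on each array. Background, outlier and saturation calls are the software's, per the file headers.

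From the deposited intensities, log2 ratios were computed in R 4.3.3 with limma 3.58.1 (normexp, offset 50, then loess within arrays, control spots weighted 0). Spot readings called outliers were left out (1765, 0.372%), and no reading was saturated. Of 55681 probes, 29150 carried a RefSeq accession and 27509 matched a gene symbol (20887 genes). Probes well above background in red on at least 4 of 8 arrays were kept (18146), and the brightest stood for its gene (13982 genes). KO was compared with WT by lmFit and eBayes with Benjamini-Hochberg adjustment over all genes and a threshold of 0.05. Recovery was tested on simulated data for KO against WT with 13982 genes. Of 50 genes raised by 1 (log2), 96% were called, and of 50 raised by 0.5, 70%. Of 50 genes changed by -1, 94% were called, and of 50 changed by -0.5, 66%. Noise was drawn independently for each gene and array, so deviations shared across an array and the sex imbalance were not simulated. With 4 arrays a group, precision is limited by their number. Each kidney pair had its own array, so p-values measure the spread between pairs and between arrays together.

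The sample titles number the kidney pairs of each group but do not say that equal numbers pair WT with KO. Same-numbered WT and KO arrays deviated together from their group means (r = 0.138, 0.373, 0.257 and 0.304, each over the 0.1 set as the bar). They also share a column of the slide, so pairing and slide position cannot be told apart. The highest r of these WT arrays with a KO array of another number was 0.094, 0.309, -0.061 and 0.369, so WT4 was more like another number than its own. The numbers were then fitted as a block, as an alternative.

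The genes and lists were chosen with earlier results of these data known. All 10 members were named, with up to 4 called genes of each other list or, with none called, up to 2 of lowest p, the 5 genes most like Foxi1 and Slc26a4, and the paired pump isoforms. Cited1, Six2, Rhcg, Hepacam2, Aqp6, Dmrt2, Car15, Aqp2, Avpr2 and Scnn1a were chosen after their values were seen. So were C1qc and the erythroid and osteoclast genes given by their detection. Promoters are from RefSeq (GRCm38.p6). Alternatives changed background correction, scale, filter, probe rule, weights, block, sex term and the arrays used.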

Additional observations from a re-analysis of the deposited data

Results flagged for a closer look

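Atp6v1g3, the G3 subunit gene of the proton pump, had 1 KO array far from the others: its log2 ratio was 0.19 in KO3, against -0.11, -0.07 and -0.10 in KO1, KO2 and KO4. The probe was well above background on 4 of 8 arrays, KO3 among them. This was 1 of 20 groups of arrays examined for the 10 genes, and chance marks about 1 in 20.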

How the results depend on the processing

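The number of genes called, 301 as reported, was 123 with the scanner software's log ratio, 125 with the deposited values, 0 with median centring (178 genes had an unadjusted p under 0.05), 1 with the red channel alone, 454 with array weights and 12 with sex as a term. The number of members called, 2 as reported, was 0 with no background correction, with a normexp offset of 16, with the software's ratio, with the deposited values, with median centring, with red alone, with no filter on dim probes and with sex as a term (limma; of the 10 members, 3 had an unadjusted p under 0.05 in each of these except median centring with 1 and red alone with 0). It was 1 with every kept probe, with the mean of a gene's probes, with array weights and without WT1 and KO1. Without any 1 array, the counts ran from 83 to 345 genes and from 0 to 2 members. Aquantile leaves the ratios as they are by construction.

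The replicate numbers as a block, a pairing that the sample titles do not state, gave 556 genes called and the same 2 members. Added after seeing the data, all without WT1 and KO1, were red alone (143 genes, 0 members), the software's ratio (65 genes, 0 members) and the replicate block (520 genes, 1 member). The cause of these changes was not tested.

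Some differences changed sign, most of them close to 0. The exceptions were Car14 (-0.36 as reported), Car8 (0.32) and Slc4a11 (-0.27). Median centring gave 0.0035 for Foxi1 and -0.055 for Slc26a7, and no background correction 0.0085 for Atp6v1g3. Red alone gave 0.30 for Foxi1, 0.075 for Slc4a11 and 0.28 for Car14. No filter gave -0.23 for Car8, from its other probe. The software's ratio and the deposited values both gave -0.11 for Atp6v1b2. The sex term gave -0.094 for Slc26a7, -0.026 for Slc4a9, 0.24 for Atp6v1g3 and -0.22 for Atp6v1b2. Without WT1 and KO1, with and without the replicate block, Atp6v1b1 was 0.050, Atp6v1g3 0.069, Atp6v1b2 -0.0065 and Atp6v0d1 -0.025. On those arrays red alone gave 0.089 for Foxi1, 0.0098 for Atp6v1b1, -0.093 for Atp6v1b2 and -0.010 for Atp6v0d1. The software's ratio there gave 0.0044 for Foxi1, -0.0087 for Slc4a1, 0.040 for Atp6v1b1, 0.090 for Atp6v1g3, -0.10 for Atp6v1b2, -0.0037 for Atp6v0d1 and -0.0047 for Atp6v0a1. Without any 1 array, Foxi1 ran from -0.064 to 0.0084, Slc26a7 from -0.039 to 0.060, Slc4a1 from -0.057 to 0.25, Slc4a9 from -0.00094 to 0.29, Atp6v1b1 from -0.25 to 0.053, Atp6v1g3 from -0.13 to 0.041, Atp6v1b2 from -0.0074 to 0.18 and Atp6v0d1 from -0.0097 to 0.055. Signal over background limits Slc26a7 and Atp6v1g3 most.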
